A study of Mus musculus with 16 samples.

Results

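The transcripts described here are the 37 encoded by the mouse mitochondrial genome: 13 mRNAs, 2 rRNAs and 22 tRNAs. They were taken as all genes of the deposited count table whose Ensembl identifiers carry symbols starting with mt- in GENCODE M21 (GRCm38), 37 of 49585 genes in all. RNA sequencing was done on epidermis of SKH-1 mice, a hairless albino stock used in photocarcinogenesis work, aged 8 to 12 weeks. The 4 groups of 4 libraries each were C/EBPB epidermal-specific knockout mice sampled 6 h after 100 mJ/cm2 UVB, K5Cre control mice sampled at the same time after the same dose, unexposed knockout mice and unexposed K5Cre control mice. The controls carry the K5Cre transgene, in which the keratin 5 promoter drives Cre recombinase in basal keratinocytes, and the floxed or wild-type state of Cebpb in them is not given in the labels. Total RNA came from epidermis separated by heat shock. Nothing in the labels ties a library to an animal, so p-values given below reflect only the spread between these samples, and that spread may be technical.

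Mitochondrial DNA is a small circle transcribed from promoters in its control region into long polycistronic RNAs of both strands. Most genes lie on the heavy-strand transcript, which starts just before mt-Rnr1, while mt-Nd6 and 8 of the tRNA genes lie on the light-strand transcript. The tRNAs that punctuate the transcript are cut out, which frees the rRNAs and mRNAs between them. The mRNAs encode subunits of respiratory complexes I, III and IV and of the ATP synthase, whose other subunits are encoded in the nucleus, and the 2 rRNAs build the mitochondrial ribosome.

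Sequences are shown first for the 1 transcript that passed a test and for a stretch whose genes have a near-identical copy elsewhere, taken from the GENCODE M21 transcripts on GRCm38. The first is mt-Rnr1, the 12S rRNA and first long gene of the heavy-strand transcript, which follows the tRNA gene mt-Tf (chrM:1-68). It lies at chrM:70-1024 on the plus strand, and its first 40 bases are at chrM:70-109.
mt-Rnr1: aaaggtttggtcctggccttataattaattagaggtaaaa
The stretch, which is copied in the nuclear genome, is shown by the first 60 bases of mt-Co2, cytochrome c oxidase subunit 2 (chrM:7013-7072, plus strand), beside the same bases of the chromosome 1 pseudogene Gm28661 (chr1:24615506-24615565, minus strand) and of the chromosome 2 pseudogene Gm13341 (chr2:22587903-22587962, minus strand). Capitals mark the 2 positions at which Gm13341 differs from mt-Co2, and Gm28661 differs from mt-Co2 at 0 of the 60 bases.
mt-Co2: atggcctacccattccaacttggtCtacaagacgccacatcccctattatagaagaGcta
Gm28661: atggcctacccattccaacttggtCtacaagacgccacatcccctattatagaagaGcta
Gm13341: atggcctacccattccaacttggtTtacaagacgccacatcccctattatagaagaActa
The copied stretch ends inside mt-Nd4, a complex I subunit, at its base 876 of 1378. The window at chrM:11013-11072 (plus strand) spans that end, with the bases present in the chromosome 1 copy in capitals.
mt-Nd4: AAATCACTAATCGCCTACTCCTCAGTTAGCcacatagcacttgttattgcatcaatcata
Within the copied stretch mt-Atp8 and mt-Atp6, subunits of the ATP synthase, share 43 bases read in different frames, and these are in capitals in the window at chrM:7917-7979 (plus strand).
mt-Atp8 and mt-Atp6 overlap: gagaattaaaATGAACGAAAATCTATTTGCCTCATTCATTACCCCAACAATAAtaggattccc

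As a check of the labels, Cebpb had 1.93 ± 1.07 CPM (counts scaled to a common library size, with TMM factors) in UVB-exposed knockouts and 291 ± 28.6 CPM in UVB-exposed controls, 0.574 ± 0.297 CPM in unexposed knockouts and 166 ± 13.7 CPM in unexposed controls (SD, n = 4 each). Library totals were 33 to 53.3 M counts, and the 7 keratinocyte markers (Krt5, Krt14, Krt1, Krt10, Trp63, Lor and Dsp), none of them at 0 in any group, summed to 25487 to 66869 CPM. Markers of skeletal muscle, a tissue rich in mitochondrial RNA, summed to 3.02 to 8.11 CPM. The 2 brown adipocyte markers, Ucp1 and Cidea, summed to 9.9 to 48.7 CPM in exposed knockouts, 16 to 53 CPM in exposed controls, 5.41 to 13.4 CPM in unexposed knockouts and 9.87 to 18.9 CPM in unexposed controls. After UVB 1 of the 2 rose and 1 fell in controls, where 17.7% of all tested genes rose and 18% fell. In knockouts 1 rose and 0 fell, beside 18.1% and 14.1% of all tested genes. The sum is therefore not read as an amount of that cell type. Over all libraries, adipocyte markers summed to 1.07 to 40.5 CPM, fibroblast markers to 0 to 10 CPM and Langerhans cell markers to 493 to 821 CPM. The strand setting of the authors' counting is not given in the sources used here. Reads of mt-Nd6 and of heavy-strand RNA over the same bases therefore cannot be told apart. Of the heavy-strand mRNA genes only mt-Nd5, which ends at chrM:13565, overlaps mt-Nd6 (chrM:13552-14070). Gm42418, a gene model that holds sequence of nuclear ribosomal RNA, took 7.93% of the counts of unexposed control library 2, 7.52% of unexposed knockout library 4 and 6.64% of UVB-exposed control library 4, and 0.653% to 4.08% of the other 13 libraries. Unexposed knockout library 4 also stood apart in the mitochondrial transcripts themselves, so the main comparisons that use it are given with and without it.

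Mitochondrially encoded RNA made up 5.98%, 5.68%, 5.44% and 5.99% of all counts in the UVB-exposed knockout libraries and 8.57%, 5.24%, 9.59% and 9.65% in the UVB-exposed control libraries. It made up 5.12%, 5.67%, 4.33% and 10.2% in the unexposed knockout libraries and 5.93%, 5.62%, 8.57% and 6.21% in the unexposed control libraries. The groups overlapped in all 4 comparisons, and the exposed knockouts varied least among themselves. The means were 5.77% ± 0.265, 8.26% ± 2.07, 6.32% ± 2.63 and 6.58% ± 1.35 in the same order of groups (SD, n = 4 each). The unexposed knockout mean was 5.04% without library 4. In bulk epidermis, fewer cells of a type and less RNA per cell cannot be told apart.

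**Figure D1:**
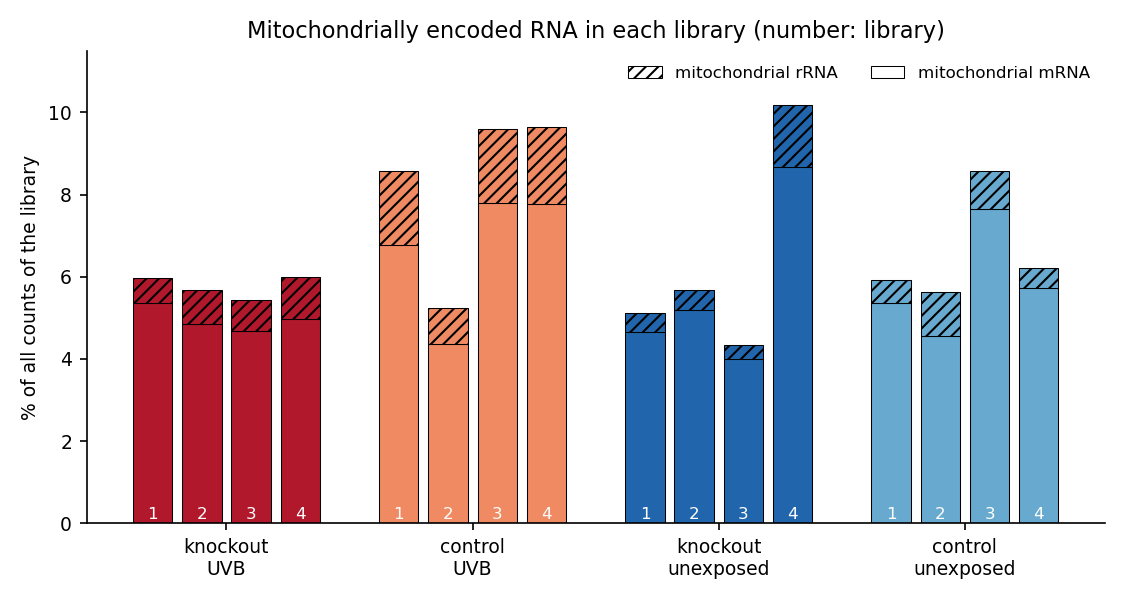
Percent of all counts of each library that fell on mitochondrially encoded mRNA (plain bars) and rRNA (hatched, stacked on top), by group, with library numbers at the foot. Unexposed knockout library 4 (10.2%) stood above the other 3 knockout libraries (4.33% to 5.67%), and UVB-exposed control library 2 (5.24%) below the other 3 of its group.

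Of the 37 genes, 23 passed the filter on low counts and were tested: all 13 mRNAs, both rRNAs and 8 tRNAs. Nearly all counts came from 9 genes with at least 1000 counts in every library, the 2 rRNAs and 7 of the mRNAs, which held 99.96% of the mitochondrial counts in the library where their share was lowest. The 22 tRNAs together had 263 to 641 counts per library. The tRNA genes are 59 to 75 bases long, and libraries of this kind keep few RNAs of that length, so their counts are not read as tRNA levels. The methionine tRNA mt-Tm, between mt-Nd1 and mt-Nd2 at chrM:3845-3913 (plus strand), had the most counts of the 22 in total, from 45 to 238 per library, and mt-Tf, mt-Tk, mt-Tg and mt-Ts2 had 0 in every library. The 14 tRNAs that were not tested had at most 31 counts over all 16 libraries.

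Per kilobase of gene, mt-Co1, the catalytic subunit of cytochrome c oxidase, was the highest of the mitochondrial genes in each of the 4 group means. It averaged 13964 ± 1272 CPM per kb in UVB-exposed knockouts, 22022 ± 5286 in UVB-exposed controls, 15275 ± 8433 in unexposed knockouts and 15527 ± 4295 in unexposed controls (SD, n = 4 each). mt-Nd1, a complex I subunit, averaged 8151 ± 467, 13434 ± 3145, 7609 ± 4345 and 9042 ± 2579 CPM per kb in the same order of groups. mt-Cytb, the cytochrome b of complex III, averaged 6242 ± 246, 10205 ± 2495, 8466 ± 4544 and 10239 ± 2485 CPM per kb. The libraries of these 2 neighbours in the order of levels overlapped in each group except the exposed knockouts, where mt-Nd1 was above mt-Cytb. Without unexposed knockout library 4 the unexposed knockout means were 11080 ± 1039 CPM per kb for mt-Co1, 5445 ± 466 for mt-Nd1 and 6201 ± 412 for mt-Cytb (SD, n = 3). The light-strand mRNA mt-Nd6 averaged 133 ± 13.5, 236 ± 98.5, 245 ± 219 and 251 ± 81.1 CPM per kb, in the same order of groups, the lowest of the 7 well-counted mRNAs (136 ± 21.9 CPM per kb in unexposed knockouts without library 4). mt-Rnr1 and mt-Rnr2 lay between mt-Nd6 and mt-Nd1 in each group. Whether ribosomal RNA was depleted or poly(A) RNA selected is not given in the labels, so levels of rRNA and mRNA cannot be set against each other as amounts in the cell.

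**Figure D2:**
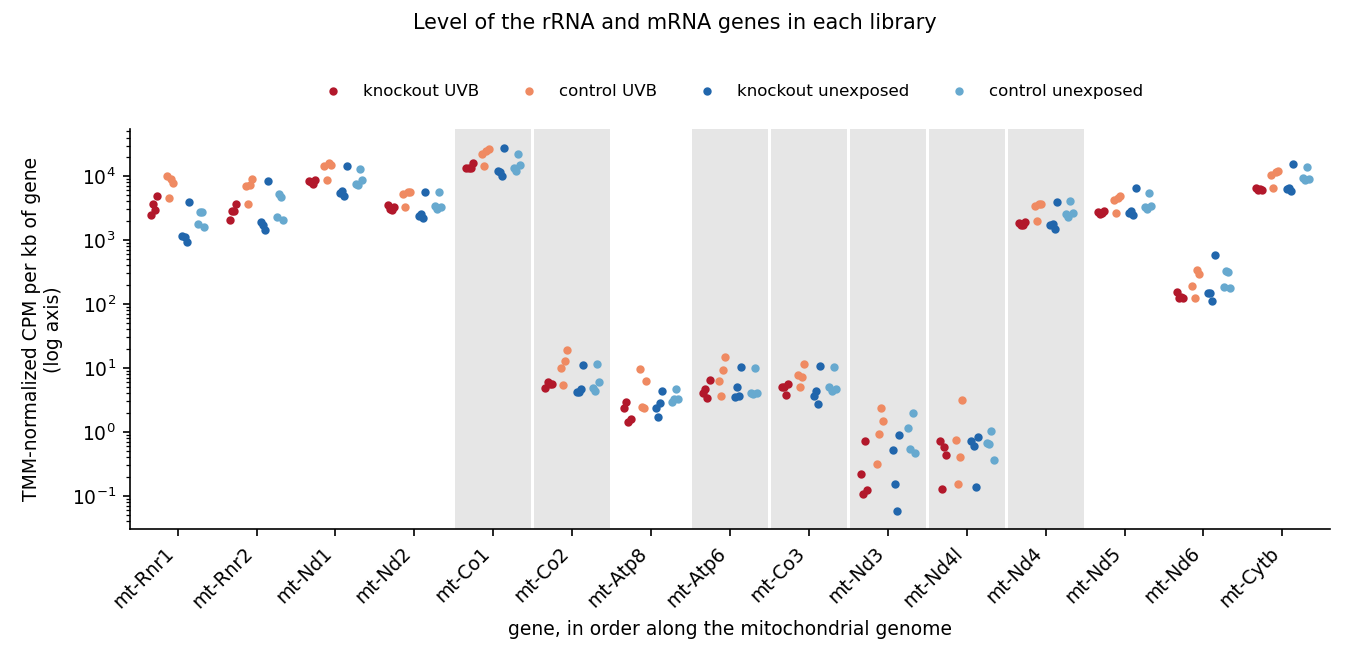
TMM-normalized CPM per kb of gene (log axis) for the 2 rRNA and 13 mRNA genes in each library, in their order along the mitochondrial genome, 1 point per library, coloured by group. Grey marks genes with more than 50% of their 50-base windows present in another annotated gene, and the 6 genes from mt-Co2 to mt-Nd4l had 1 to 370 counts per library against 2778 to 1377650 for the other 7 mRNAs.

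The 13 mRNAs fell into a well-counted and a nearly empty set that followed position and not function. mt-Co2, mt-Atp8, mt-Atp6, mt-Co3, mt-Nd3 and mt-Nd4l, which lie next to each other, had 1 to 370 counts per library. The other 7 mRNAs had 2778 to 1377650 counts per library. mt-Co2 and mt-Co3 encode partners of mt-Co1 in the same enzyme, and per kb of gene mt-Co2 averaged 6.67 ± 3.31 CPM in unexposed controls, where mt-Co1 averaged 15527 ± 4295 CPM (SD, n = 4).

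The nearly empty genes lie in the stretch chrM:6390-11042 that matches 7 annotated unprocessed pseudogenes on chromosome 1, which run in the same order over 4663 bases on the minus strand (chr1:24611535-24616197). The matches had 99.7% to 100% identity and covered all but the last base of mt-Co3 and all but the last 3 bases of mt-Co2, mt-Atp6, mt-Nd3 and mt-Nd4l, and covered bases 1063 to 1545 of mt-Co1 and bases 1 to 876 of mt-Nd4. Of all 50-base windows of a gene, 100% of mt-Co2, 99.5% of mt-Atp6, 99.9% of mt-Co3, 98.0% of mt-Nd3 and 98.8% of mt-Nd4l occurred letter for letter in another annotated gene. The share was 62.2% for mt-Nd4, 51.1% for mt-Co1, 8.19% for mt-Nd2, 7.61% for mt-Nd5 and 1.04% for mt-Rnr2, and 0% for mt-Rnr1, mt-Nd1, mt-Nd6 and mt-Cytb. mt-Atp8, with 15 to 70 counts per library, lies between mt-Co2 and mt-Atp6 and shares only the 43 overlapping bases with an annotated copy. Only annotated genes were searched, so the bases of chromosome 1 between the annotated copies were not compared with mt-Atp8. How the authors' counting treated reads that fit more than 1 place is not given in the sources used here, and its part in the low counts was not tested.

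The chromosome 1 copies of mt-Co2, mt-Atp6, mt-Co3 and mt-Nd4l had counts of the same order as those genes, and the copy of mt-Nd3 had far more than mt-Nd3. Gm28661 had 107 to 325 counts per library, against 125 to 370 for mt-Co2. Gm10925 had 134 to 299 counts, against 108 to 292 for mt-Atp6. Gm28437 had 171 to 399 counts, against 108 to 270 for mt-Co3. Gm28438 had 215 to 819 counts and stood above mt-Nd3, at 1 to 27 counts, in 16 of 16 libraries. The values of mt-Co2, mt-Atp6, mt-Co3, mt-Nd3 and mt-Nd4l are therefore not read as transcript levels below, and those of mt-Nd4 and mt-Co1 are uncertain, since part of each gene shares sequence with a copy. mt-Atp8, which lies among the nearly empty genes, is not read as a level either. If all counts of a gene are set against only its 50-base windows found in no other gene, mt-Nd4 averaged 8667 ± 2176 CPM per kb in UVB-exposed controls, where mt-Cytb averaged 10661 ± 2606 CPM per kb on the same scale (SD, n = 4). The same step took mt-Co1 further from mt-Cytb, to 46544 ± 11172 CPM per kb from 22022 ± 5286 per kb of gene. It is thus not read as a correction of the levels.

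The comparison of UVB-exposed with unexposed control epidermis asks how the irradiation changed transcript levels in the K5Cre controls. Of the 23 mitochondrial transcripts tested, mt-Rnr1 rose and the other 22 did not pass the test, where edgeR called 35.8% of all 17741 tested genes (17.7% rose and 18% fell). An edgeR adjusted p is from its quasi-likelihood test with Benjamini-Hochberg adjustment over those 17741 genes, at a threshold of 0.05. mt-Rnr1 had 9433, 4305, 8545 and 7394 CPM in the UVB-exposed control libraries, against 1697, 2577, 2595 and 1530.1 CPM in the unexposed control libraries. Every exposed library was above every unexposed one, and the mean was 3.53-fold higher (log2 fold change 1.82, SE 0.43, edgeR adjusted p = 0.00404). In 16 alternative settings, each library left out in turn included, the log2 fold change of mt-Rnr1 was 1.67 to 1.95 and the call held in each.

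mt-Rnr2, the 16S rRNA and the next long gene of the transcript, had 11194, 5789, 11327 and 14284 CPM in the UVB-exposed control libraries, against 3670.5, 8426, 7475 and 3216 CPM in the unexposed control libraries. The groups overlapped (log2 fold change 0.90, SE 0.55, edgeR adjusted p = 0.231). mt-Nd1 had 13715, 8417, 15042 and 14254 CPM in the UVB-exposed control libraries, against 7242, 6887, 12257 and 8227 CPM in the unexposed control libraries. These overlapped too (log2 fold change 0.57, SE 0.28, edgeR adjusted p = 0.121), as unexposed library 3 was higher than exposed library 2. Without that unexposed library the adjusted p of mt-Nd1 was 0.0469 and that of mt-Co2 0.0285, so that 3 transcripts were called. That fit called 5534 of all genes, against 6343 in the main fit. mt-Cytb, near the far end of the transcript, had 12050.3, 7535, 13349.8 and 13761 CPM in the UVB-exposed control libraries, against 10764, 9779.6, 15935 and 10375 CPM in the unexposed control libraries. Its means differed by less than the spread (log2 fold change -0.0048, SE 0.26, edgeR adjusted p = 0.992).

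Across the 23 transcripts 19 log2 fold changes were above 0 and 4 below, with a median of 0.46, where 49% of all tested genes were above 0 and their median was -0.02. In such splits, here and below, the values are not independent. Most transcripts share a precursor RNA and all come from the same libraries, so 1 shift of the mitochondrial share can move them together. Of the 9 well-counted genes 7 were above 0 and 2 below (median 0.38). Without the 3 libraries with over 5% Gm42418, a choice made after the data were seen, 14 of the 23 were above 0 and 9 below (median 0.11), and mt-Rnr2 was called beside mt-Rnr1 (log2 fold change 0.98, edgeR adjusted p = 0.0304). That fit called 6073 of all genes, against 6343 in the main fit. The 2 transcripts whose exposed control libraries all lay above the unexposed ones were mt-Rnr1 and the threonine tRNA mt-Tt, where 16.3% of all tested genes did so. mt-Tt, named after its values were seen, had 1.69, 0.664, 1.34 and 0.452 CPM in exposed and 0.241, 0.283, 0.182 and 0.364 CPM in unexposed controls, from 5 to 61 counts per library over the series (log2 fold change 1.94, SE 0.82, edgeR adjusted p = 0.0711). Its adjusted p was 0.0442 without UVB-exposed control library 4, which made 2 transcripts called, beside 6501 of all genes. mt-Tt lies at chrM:15289-15355, the last gene of the heavy strand.

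In the knockouts, UVB exposure called 0 of the 23 transcripts, where edgeR called 32.2% of all tested genes, and 1 transcript had an unadjusted p under 0.05. mt-Rnr1 had 2357, 3499, 2784 and 4629 CPM in the UVB-exposed knockout libraries, against 1108, 1049, 884 and 3706 CPM in the unexposed knockout libraries. All 4 exposed libraries were above unexposed libraries 1 to 3 and 3 of them were below unexposed library 4 (log2 fold change 0.98, SE 0.42, edgeR adjusted p = 0.0966). Without unexposed knockout library 4, mt-Rnr1 was 3.18-fold higher after UVB and passed the test (log2 fold change 1.67, SE 0.28, edgeR adjusted p = 0.000195). With all 16 libraries limma voom called it (adjusted p = 0.0111) and DESeq2 did not (log2 fold change 0.92, adjusted p = 0.142). mt-Rnr2 had 3251, 4424, 4498 and 5762 CPM in the UVB-exposed knockout libraries, against 3010.2, 2742, 2226 and 13298 CPM in the unexposed knockout libraries. Its log2 fold change was -0.25 with all libraries and 0.71 without unexposed library 4, so its sign rests on that library (adjusted p = 0.796 and 0.15 by edgeR).

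The well-counted mRNAs of the knockouts showed the same dependence. mt-Nd1 had 7932, 7691, 7256 and 8325 CPM in the UVB-exposed knockout libraries, against 5283, 5617, 4733 and 13495 CPM in the unexposed knockout libraries. Its 4 exposed libraries lay above unexposed libraries 1 to 3 and below library 4. The log2 fold change was 0.10 with all libraries and 0.54 without library 4 (edgeR adjusted p = 0.842 and 0.0599). mt-Cytb had 7529.6, 6874, 7141 and 7019.7 CPM in the UVB-exposed knockout libraries, against 7116, 7553, 6611 and 17462 CPM in the unexposed knockout libraries. Here the exposed libraries lay among unexposed libraries 1 to 3, and the log2 fold change was -0.44 with all libraries and -0.04 without library 4. Of the 23 log2 fold changes 4 were above 0 and 19 below with all libraries (median -0.29, all tested genes 0.01, with 49.6% of them below 0), and 15 above and 8 below without library 4 (median 0.14, all tested genes -0.04). Of the 9 well-counted genes 3 were above 0 and 6 below with all libraries (median -0.25), and 6 above and 3 below without library 4 (median 0.29).

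In both genotypes the log2 fold change after UVB tended to be higher for genes nearer to the start of the heavy-strand transcript, with mt-Rnr2 in knockouts and mt-Nd2 in controls out of order. In the knockouts it was 0.98 for mt-Rnr1, -0.25 for mt-Rnr2, 0.10 for mt-Nd1, 0.01 for mt-Nd2, -0.13 for mt-Co1, -0.30 for mt-Nd4, -0.43 for mt-Nd5 and -0.44 for mt-Cytb. Without unexposed knockout library 4 the values in the same order of genes were 1.67, 0.71, 0.54, 0.39, 0.29, 0.08, -0.02 and -0.04. In the controls they were 1.82, 0.90, 0.57, 0.38, 0.50, 0.13, 0.09 and -0.0048. Over the 6 heavy-strand mRNAs, the correlation of the log2 fold change with the distance of the gene's midpoint from the 5′ end of mt-Rnr1 was r = -0.98 (rho = -1) in knockouts, with all libraries and also without library 4, and r = -0.96 (rho = -0.94) in controls. Over all 8 genes it was r = -0.73 (rho = -0.86) in knockouts, r = -0.83 (rho = -1) there without library 4, and r = -0.83 (rho = -0.98) in controls. These are descriptions across genes that share a precursor RNA, the same libraries and, for mt-Co1 and mt-Nd4, uncertain counts, and the pattern was noticed in these data. The light-strand mt-Nd6 had log2 fold changes of -0.88 in knockouts and -0.09 in controls, neither past the test. Without unexposed knockout library 4 the value in knockouts was -0.08 (edgeR adjusted p = 0.896), as that library had 297 CPM of mt-Nd6, above every other library of its group.

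**Figure D3:**
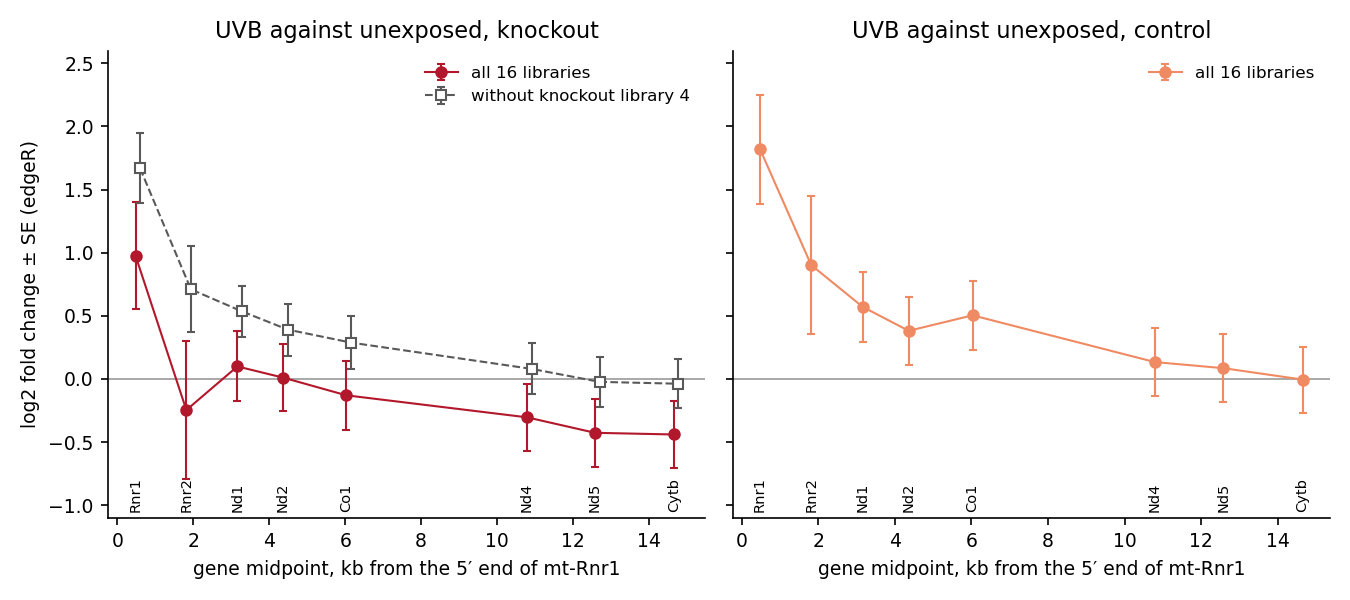
Log2 fold change with its SE after UVB against the distance of the gene's midpoint from the 5′ end of mt-Rnr1, in kb, for the 8 well-counted heavy-strand genes, in knockouts (left) and controls (right). Open squares leave out unexposed knockout library 4, which raised the value of mt-Rnr1 in knockouts to 1.67 and that of mt-Cytb to -0.04. The values declined with distance in both genotypes, apart from mt-Rnr2 in knockouts with all libraries and mt-Nd2 in controls.

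The same contrast was seen within each library, where it does not depend on library totals or scaling. The ratio of mt-Nd1 to mt-Cytb counts was 1.05, 1.12, 1.02 and 1.19 in the UVB-exposed knockout libraries, against 0.742, 0.744, 0.716 and 0.773 in the unexposed knockout libraries. It was 1.14, 1.12, 1.13 and 1.04 in the UVB-exposed control libraries, against 0.673, 0.704, 0.769 and 0.793 in the unexposed control libraries. Every exposed library was above every unexposed library, unexposed knockout library 4 included, and the genotypes overlapped. The means were 1.09 ± 0.0748 and 0.744 ± 0.0232 in exposed and unexposed knockouts, and 1.1 ± 0.0466 and 0.735 ± 0.0558 in exposed and unexposed controls (SD, n = 4 each). Neither gene has a 50-base window in another annotated gene, and each library had at least 328671 counts of mt-Cytb. The ratio was chosen after the values were seen and was not tested.

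The 2 rRNAs also shifted against each other. The ratio of mt-Rnr2 to mt-Rnr1 counts was 1.38, 1.26, 1.62 and 1.24 in the UVB-exposed knockout libraries, against 2.72, 2.61, 2.52 and 3.59 in the unexposed knockout libraries. It was 1.19, 1.34, 1.33 and 1.93 in the UVB-exposed control libraries, against 2.16, 3.27, 2.88 and 2.1 in the unexposed control libraries. Exposed and unexposed libraries did not overlap in either genotype. In 3 of the 4 groups the highest ratio was that of the library with over 5% of counts on Gm42418 (unexposed knockout library 4, exposed control library 4 and unexposed control library 2), and the part of ribosomal RNA carried in a library was not tested. mt-Rnr1 counts per 100 counts of the 6 heavy-strand mRNAs were 4.96, 7.69, 6.19 and 9.07 in exposed and 2.75, 2.54, 2.49 and 3.81 in unexposed knockouts, and 12.1, 8.72, 9.98 and 8.33 in exposed and 3.28, 5.45, 3.11 and 2.8 in unexposed controls. These too did not overlap within a genotype. mt-Rnr2 counts on the same measure did overlap in both. They were 6.84 to 11.3 in exposed and 6.27 to 13.7 in unexposed knockouts, and 11.7 to 16.1 in exposed and 5.88 to 17.8 in unexposed controls.

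**Figure D4:**
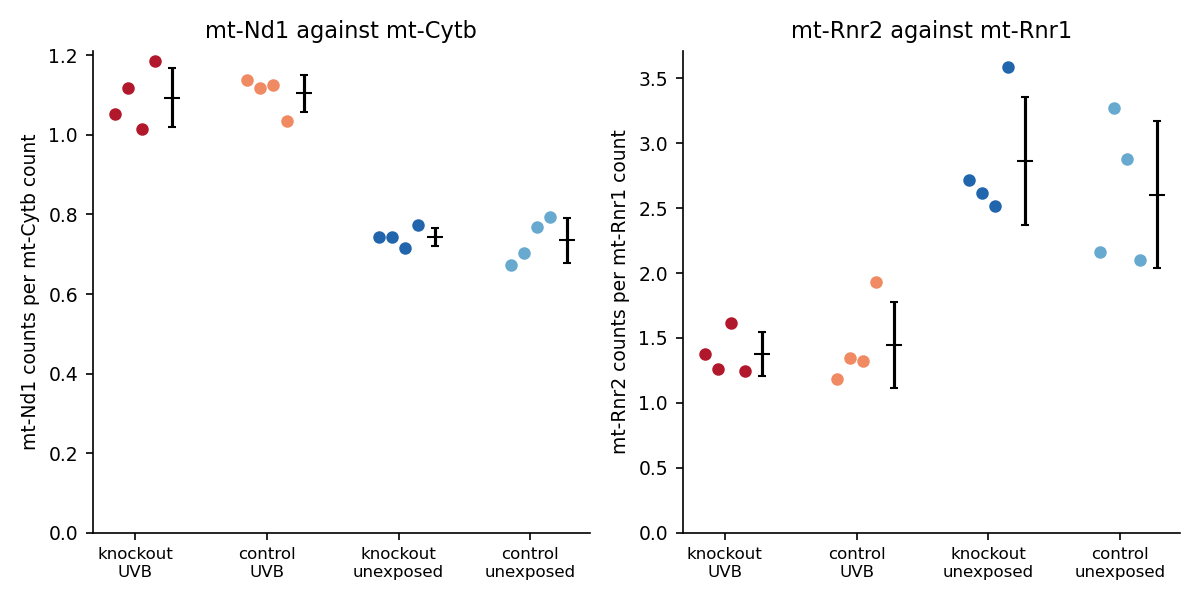
Ratio of mt-Nd1 to mt-Cytb counts (left) and of mt-Rnr2 to mt-Rnr1 counts (right) in each library, with the mean and SD of each group beside its 4 points. Exposed libraries lay at 1.02 to 1.19 (left) and 1.19 to 1.93 (right), unexposed ones at 0.673 to 0.793 and 2.10 to 3.59.

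As shares of the counts of the 6 well-counted heavy-strand mRNAs, mt-Cytb and mt-Nd4 were lower after UVB in both genotypes. The share of mt-Cytb was 15.1 ± 0.997% in exposed and 18.1 ± 0.412% in unexposed knockouts, and 15.4 ± 0.143% in exposed and 19.9 ± 0.992% in unexposed controls (SD, n = 4 each). The share of mt-Nd5, a complex I subunit, was 10.4 ± 0.331% in exposed and 12.3 ± 0.338% in unexposed knockouts, and 9.81 ± 0.106% in exposed and 11.7 ± 0.251% in unexposed controls. The share of mt-Nd1 was 16.5 ± 0.356% in exposed and 13.5 ± 0.328% in unexposed knockouts, and 17.1 ± 0.708% in exposed and 14.6 ± 0.434% in unexposed controls. For mt-Cytb, mt-Nd4, mt-Nd5 and mt-Nd1 the exposed and unexposed libraries did not overlap in either genotype. The shares sum to 100% by construction, so they are not independent of each other.

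Between the genotypes, the comparison of unexposed knockouts with unexposed controls asks what the loss of C/EBPB changes in resting epidermis. Of the 23 transcripts edgeR called 0, where it called 2.1% of all tested genes. Of the 23, 0 had an unadjusted p under 0.05, and DESeq2 and limma voom called 0 as well. mt-Rnr1 was 1687 ± 1349.5 CPM in unexposed knockouts and 2099.8 ± 565 CPM in unexposed controls (SD, n = 4 each; log2 fold change -0.32, SE 0.42, edgeR adjusted p = 0.911). mt-Co1 had 18206, 17875, 15275 and 43045 CPM in the unexposed knockout libraries, against 20729, 18844, 33655 and 22727 CPM in the unexposed control libraries. Knockout libraries 1 to 3 were below all control libraries and knockout library 4 above all of them. Its log2 fold change was -0.02 with all libraries and -0.46 without knockout library 4 (edgeR adjusted p = 0.995 and 0.32).

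With all libraries, 6 of the 23 log2 fold changes between unexposed knockouts and controls were above 0 and 17 below (median -0.15), where 49.6% of all tested genes were below 0 and their median was 0.00218. Without knockout library 4, 3 were above and 20 below (median -0.57, all tested genes 0.03) and the lowest edgeR adjusted p was 0.0536, that of mt-Rnr1 at a log2 fold change of -1.03. Of the 9 well-counted genes 9 were below 0 both with all libraries (median -0.25) and without that library (median -0.70). mt-Nd4 stood at -0.77 there (adjusted p = 0.0542). Leaving out the 3 libraries with over 5% Gm42418, a choice made after the data were seen, called mt-Nd4 alone, 1.82-fold lower in knockouts (log2 fold change -0.87, edgeR adjusted p = 0.0456). That fit called 315 of all genes, against 373 in the main fit.

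Within the mRNA counts, the unexposed genotypes differed in composition. The share of mt-Co1 among the 6 heavy-strand mRNAs was 45.2, 43.3, 43 and 44.3% in the unexposed knockout libraries, against 40.1, 39.9, 40.4 and 41.5% in the unexposed control libraries. The share of mt-Nd4 was 5.86, 5.96, 5.76 and 5.62% in the unexposed knockout libraries, against 6.83, 6.56, 6.71 and 6.64% in the unexposed control libraries. The knockouts were higher in mt-Co1 and lower in mt-Nd4, mt-Nd1 and mt-Cytb, with no overlap between the groups and with knockout library 4 on the same side as the rest of its group. After UVB the share of mt-Nd4 was 5.42, 5.26, 5.23 and 5.23% in the knockout libraries, against 5.9, 5.55, 5.82 and 5.71% in the control libraries, again without overlap. mt-Co1 did not keep this separation after UVB, at 45.6 ± 1.77% in knockouts and 45.1 ± 0.88% in controls (SD, n = 4 each). These shares were chosen after the values were seen and carry no test, and both genes share sequence with the chromosome 1 copy.

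**Figure D5:**
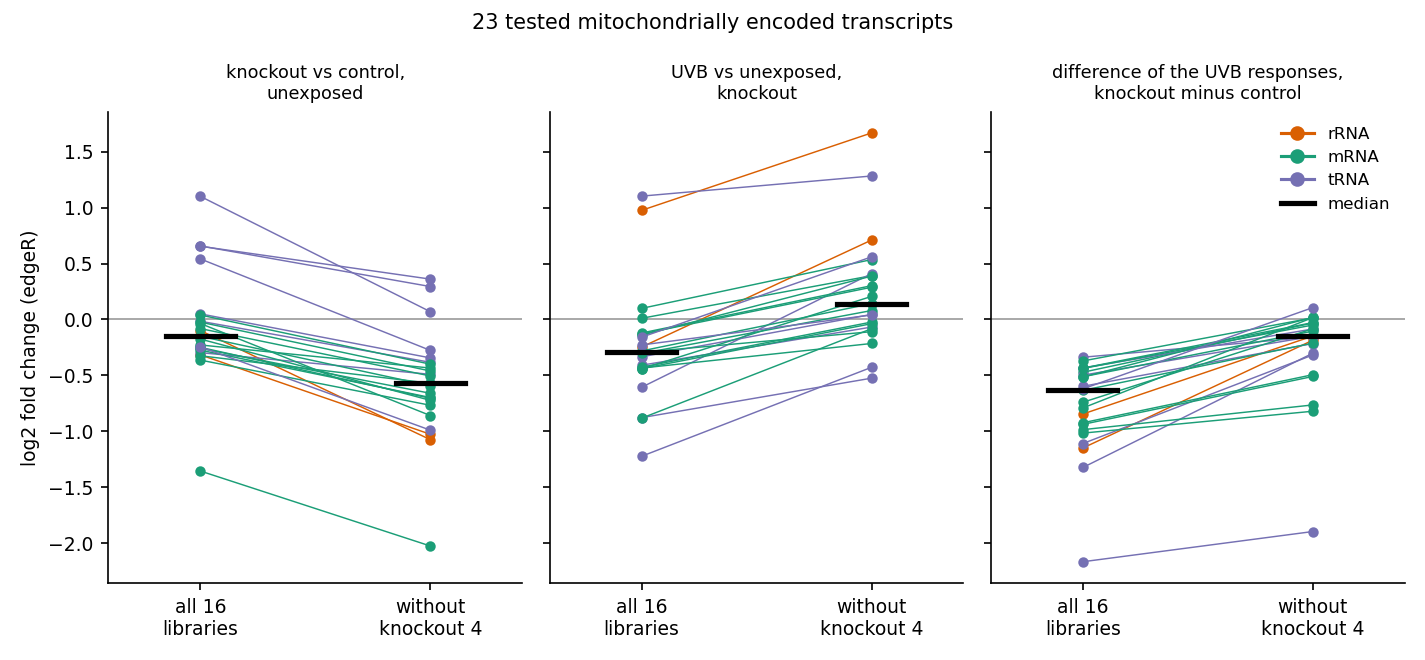
Log2 fold changes of the 23 tested transcripts with all 16 libraries and without unexposed knockout library 4, in the 3 comparisons that use that library. Each line joins the 2 values of a transcript and black bars are medians. With all libraries the medians were -0.15 between the unexposed genotypes, -0.29 for UVB in knockouts and -0.63 for the difference of the responses, and without that library -0.57, 0.14 and -0.15.

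After UVB, the knockout and control epidermis were compared at the same dose and time. edgeR called 0 of the 23 transcripts, where it called 4.68% of all tested genes, and 9 had an unadjusted p under 0.05. DESeq2 called 1, mt-Nd4 (adjusted p = 0.0314), and limma voom 0. Of all genes, DESeq2 called 1654, limma voom 827 and edgeR 830. mt-Nd4 had 2573, 2393, 2354 and 2668 CPM in the UVB-exposed knockout libraries, against 4607, 2740.3, 4987 and 5069 CPM in the UVB-exposed control libraries. All 4 knockout libraries were below all 4 control libraries, and the mean was 1.74-fold lower (log2 fold change -0.80, SE 0.27, edgeR adjusted p = 0.0905). mt-Nd1, mt-Cytb and mt-Rnr2 were the other 3 transcripts without overlap, all lower in knockouts, where 4.84% of all tested genes were lower without overlap. The separation of these 4 rests on the TMM factors, 0.974 to 1.12 in exposed knockouts and 0.867 to 0.907 in exposed controls. As plain shares of all counts the groups overlapped for each of them. Mitochondrial mRNA took 4.35% of the counts of exposed control library 2, below the 4.68% to 5.35% of the exposed knockouts. mt-Rnr2 had 3251, 4424, 4498 and 5762 CPM in the UVB-exposed knockout libraries, against the values of the UVB-exposed control libraries given above, with a log2 fold change of -1.25 (SE 0.55, edgeR adjusted p = 0.225).

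The log2 fold change after UVB between the genotypes was -0.72 for mt-Nd1, -0.71 for mt-Cytb, -0.66 for mt-Co1, -0.63 for mt-Nd2, -0.59 for mt-Nd5, -0.83 for mt-Nd6 and -1.16 for mt-Rnr1, each with an edgeR adjusted p above the threshold (0.125 to 0.381). mt-Tm was the exception in sign, at 0.22. Of the 23 values, which are not independent, 22 were below 0 (median -0.72), where 46.4% of all tested genes were below 0 and their median was 0.04. Of the 9 well-counted genes, which leave out the mRNAs and tRNAs not read as levels, 9 were below 0 (median -0.72). The split of the 23 was the same under 3 other scalings of the libraries. UVB-exposed control library 2 was the lowest of its group for the 8 well-counted heavy-strand genes and mt-Nd6. Without it 2 transcripts were called, mt-Nd4 (log2 fold change -0.95, edgeR adjusted p = 0.0347) and mt-Co2 (-1.31, 0.0442), of which mt-Co2 is among the genes not read as levels. That fit called 1356 of all genes, against 830 in the main fit. In an edgeR fit of the exposed libraries alone 3 were called, mt-Rnr2 (edgeR adjusted p = 0.0195), mt-Rnr1 (0.0267) and mt-Nd4 (0.0341). There 577 of all genes were called. Without the libraries with over 5% Gm42418 2 were called, mt-Rnr1 (edgeR adjusted p = 0.0266) and mt-Nd4 (0.0371), and 886 of all genes. At least 1 count was found for 19592 to 22001 genes per exposed knockout library and for 17086 to 19763 per exposed control library, and the part of this difference in the result was not tested.

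The difference between the UVB responses of the genotypes was below 0 for 23 of the 23 transcripts (median -0.63), where 45.4% of all tested genes were below 0 and their median was 0.05. These 23 values too are not independent of each other. edgeR called 0 of the 23 and 0% of all tested genes, and 0 of the 23 had an unadjusted p under 0.05. Without unexposed knockout library 4 the median was -0.15, with 4 above 0 and 19 below, and the 9 well-counted genes had 2 above 0 and 7 below (median -0.05). With all libraries 9 of these 9 were below 0 (median -0.51). Without the 3 libraries with over 5% Gm42418 the median of the 23 was 0.03, with 12 above 0 and 11 below. The difference for mt-Rnr1 was -0.84 (SE 0.59, edgeR adjusted p = 0.918) with all libraries and -0.15 without unexposed knockout library 4. That for mt-Nd1 was -0.47 with all libraries and -0.03 without it, and for mt-Cytb -0.43 and -0.03. A different response of mt-Rnr1 in the genotypes was thus not shown, although it passed the test in controls and not in knockouts.

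The partner subunits encoded in the nucleus were examined as lists of known members. Of 78 tested nuclear subunits of oxidative phosphorylation, 36 rose and 1 fell after UVB in knockouts (median log2 fold change 0.40), and 22 rose and 4 fell in controls (median 0.24), where 18.1% of all tested genes rose and 14.1% fell in knockouts and 17.7% rose and 18% fell in controls, with medians of all tested genes of 0.01 in knockouts and -0.02 in controls. Ndufs5 of complex I rose 2.02-fold in knockouts and 2.87-fold in controls (edgeR adjusted p = 0.0014 and 2.61e-05). Uqcrfs1, the Rieske protein of complex III, rose 2.01-fold in knockouts and 1.57-fold in controls (edgeR adjusted p = 0.000519 and 0.0138). Atp5b, the catalytic beta subunit of the ATP synthase, rose 1.92-fold in knockouts and 1.7-fold in controls (edgeR adjusted p = 7.81e-05 and 0.000509). By complex, the knockouts had 11 of 35 subunits of complex I up after UVB, 0 of 4 of complex II, 7 of 9 of complex III, 8 of 13 of complex IV and 10 of 17 of complex V. The controls had 3, 0, 4, 7 and 8 up in the same order of complexes. These counts rest in part on single libraries. In knockouts 22 of the 78 rose and 1 fell without unexposed library 4, and likewise 22 and 1 without UVB-exposed library 4, with 5 of complex I and 6 of complex V up in each case. Of all genes, those fits called 4902 and 4625, against 5710 in the main fit. In controls 15 rose and 4 fell without UVB-exposed library 2, with 2 of complex I, 2 of complex III and 4 of complex IV up. There 6018 of all genes were called, against 6343 in the main fit. Other omissions raised the counts. In knockouts 38 rose and 1 fell without unexposed library 3, and in controls 27 rose and 3 fell without UVB-exposed library 4. Those fits called 5181 and 6501 of all genes.

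Between the genotypes edgeR called 0 of the 78 nuclear subunits in unexposed epidermis and 1 after UVB: Ndufa4, a subunit of complex IV, was 1.49-fold lower in knockouts (log2 fold change -0.57, SE 0.16, edgeR adjusted p = 0.043), against 2.1% of all tested genes called in unexposed epidermis and 4.68% after UVB. Ndufa4 was called in 2 of the 8 fits that leave out 1 library of these groups (adjusted p 0.0183 to 0.14 by edgeR). The median log2 fold change of the 78 after UVB was 0.10 between the genotypes, where the 23 mitochondrial transcripts had -0.72 and all tested genes 0.04.

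Of 22 genes that process and break down mitochondrial RNA, 13 rose and 0 fell after UVB in knockouts, and 10 rose and 1 fell in controls, where 18.1% of all tested genes rose and 14.1% fell in knockouts and 17.7% rose and 18% fell in controls. In knockouts 10 rose and 0 fell when unexposed library 4 was left out. Pde12, which removes poly(A) tails from mitochondrial mRNAs, rose 2.4-fold in knockouts and 3.01-fold in controls (edgeR adjusted p = 5.97e-06 and 3e-07). Supv3l1, the helicase of the mitochondrial RNA degradosome, rose 1.9-fold in knockouts and 2.46-fold in controls (edgeR adjusted p = 0.000132 and 2.79e-06). Trnt1, which adds the CCA end to tRNAs, rose 2.06-fold in knockouts and 2.06-fold in controls. Elac2, which cuts the 3′ end of tRNAs out of the precursor, rose 1.76-fold in knockouts and 1.73-fold in controls (edgeR adjusted p = 0.00014 and 0.000169). Between the genotypes after UVB, where 4.68% of all tested genes were called, 2 of the 22 were higher in knockouts: Ptcd2, a pentatricopeptide repeat protein (1.77-fold, edgeR adjusted p = 0.0124), and Pnpt1, the polynucleotide phosphorylase of the degradosome (1.63-fold, edgeR adjusted p = 0.0424). Leaving out each of the 8 libraries in turn kept the call of Ptcd2 in 8 fits and that of Pnpt1 in 1.

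Of the genes of mitochondrial transcription and replication, 4 of 18 rose and 1 fell after UVB in knockouts, and 3 rose and 2 fell in controls, near the shares of all tested genes (18.1% and 14.1% in knockouts, 17.7% and 18% in controls) for those that rose. With each library left out in turn, the count called was 3 to 7 in knockouts and 3 to 5 in controls. It was 3 without UVB-exposed knockout library 2 and, in controls, 3 without unexposed control library 4. Polg2, the accessory subunit of the mitochondrial DNA polymerase, rose 4.45-fold in knockouts and 4.86-fold in controls (edgeR adjusted p = 2.45e-08 and 5.39e-09). Twnk, the mitochondrial DNA helicase, rose 1.71-fold in knockouts and 1.36-fold in controls (edgeR adjusted p = 0.000825 and 0.0362). Polrmt, the mitochondrial RNA polymerase, had log2 fold changes after UVB of 0.15 in knockouts and 0.17 in controls, and Tfam, which packages mitochondrial DNA and activates its promoters, 0.41 in knockouts and -0.04 in controls, with no call in either. Lrpprc, which stabilizes mitochondrial mRNAs, stood at 0.09 in knockouts and -0.21 in controls, and the coactivators Ppargc1a and Ppargc1b were not called either. Of the 8 regulators of mitochondrial biogenesis 3 rose after UVB in each genotype, Pprc1, Yy1 and Gabpb1.

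Of 75 genes for proteins of the mitochondrial ribosome, which holds the 2 rRNAs, 32 rose and 2 fell after UVB in knockouts, and 25 rose and 6 fell in controls, where 18.1% of all tested genes rose and 14.1% fell in knockouts and 17.7% rose and 18% fell in controls. In knockouts 24 rose and 3 fell when unexposed library 4 was left out. Mrpl32 of the large subunit rose 2.38-fold in knockouts and 2.72-fold in controls, and Mrpl12 rose 1.81-fold in knockouts and 1.7-fold in controls. Between the genotypes 1 of 75 was called in each condition, where 4.68% of all tested genes were called after UVB and 2.1% unexposed: Mrpl27 after UVB (1.75-fold higher in knockouts, edgeR adjusted p = 0.0319) and Mrpl14 unexposed (1.48-fold lower in knockouts, edgeR adjusted p = 0.0464). The call of Mrpl27 held in 3 and that of Mrpl14 in 1 of the 8 fits that leave out 1 library, and 7 of the 75 were called after UVB without UVB-exposed control library 2 and 3 without UVB-exposed knockout library 4. Of all genes, the last 2 fits named called 1356 and 705, against 830 in the main fit. Of 16 genes that modify mitochondrial rRNA or tRNA, 2 rose and 0 fell after UVB in knockouts, and 2 rose and 5 fell in controls, beside 18.1% and 14.1% of all tested genes in knockouts and 17.7% and 18% in controls. The counts were 1 and 0 in knockouts without UVB-exposed library 4, and 1 and 3 in controls without unexposed library 4.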

How the data were processed

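RNA of 16 epidermis libraries, 4 per group, was sequenced, and the authors deposited 1 table of raw read counts per gene. FastQC, STAR, HTSeq and DESeq2 were used per the submitters' processing notes; versions, the genome build and the handling of reads with several matches are not stated in the sources at hand. Gene symbols, positions and sequences came from GENCODE M21 (GRCm38), matched by Ensembl identifier. The deposited counts of all 16 libraries were fitted together with edgeR 4.0.16 (R 4.3.3): TMM scaling, filterByExpr, which left 17741 genes, robust quasi-likelihood tests of 5 contrasts and Benjamini-Hochberg adjustment with a threshold of 0.05. CPM were scaled by TMM. The script was tested on simulated data. Tables were joined with pandas 2.3.3. Copies of mitochondrial genes were searched among all annotated transcripts by alignment (at least 30 bases and 85% identity) and by 50-base windows. The members and gene lists were chosen with earlier results of these data known. All 37 genes are accounted for, and other genes were named only if among the 4 with the smallest p of a list, or as regulators of mitochondrial DNA and RNA, with Cebpb and Gm42418 as checks. Alternatives were 2 other scalings, scaling without mitochondrial genes, no filter, DESeq2 1.42.0, limma 3.58.1 voom, fits of only the groups compared and leaving out each library. Leaving out libraries with over 5% Gm42418 was added after seeing the data. Replicate numbers follow accession order and pair nothing. Totals of 33 to 53.3 M counts per library set the precision, and counts near 0 are imprecise.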

Additional observations from a re-analysis of the deposited data

Results flagged for a closer look

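Each group of 4 libraries was searched for a library whose gap to the nearest other exceeded the Dixon 95% critical share of the group range. This picked out 27 of 156 group values, where chance would give about 7.8, and the values are not independent, since most transcripts share a precursor RNA. Unexposed knockout library 4 was the highest of its group in 15 of them. Its rRNA took 1.51% of all counts, and it had 13.7 mt-Rnr2 counts per 100 heavy-strand mRNA counts. In that library mt-Rnr1 had 3706 CPM, mt-Rnr2 13298 CPM, mt-Nd1 13495 CPM, mt-Nd2 5883 CPM and mt-Co1 43045 CPM. Further along the genome mt-Co2 had 7.59 CPM, mt-Nd4 5468 CPM, mt-Nd5 11885 CPM, mt-Nd6 297 CPM and mt-Cytb 17462 CPM there. Of its tRNAs, mt-Tq had 2.19 CPM, mt-Tw 5.12 CPM and mt-Tp 1.59 CPM. The main comparisons that use this library are given with and without it above.

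Unexposed control library 3 was the highest of its group in 7 of them, with 9.24 CPM of tRNA before TMM scaling. It had 0.789 CPM of mt-Tl1, 1.52 CPM of mt-Tw, 5872 CPM of mt-Nd2, 6.73 CPM of mt-Atp6, 8.01 CPM of mt-Co3 and 15935 CPM of mt-Cytb. UVB-exposed knockout library 4 was the highest of its group for mt-Ti (1.54 CPM) and mt-Co1 (24508 CPM). UVB-exposed control library 1 was the highest of its group for mt-Tq, at 1.33 CPM. UVB-exposed control library 2 had the lowest rRNA share of its group, 0.888% of all counts. Unexposed control library 2, with the most Gm42418, had 3.62 mt-Nd6 counts per 1000 heavy-strand mRNA counts, the highest of its group.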

How the results depend on the processing

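The call of mt-Rnr1 after UVB in controls held under each of 16 alternatives. Among results of single transcripts over all settings, 1975 kept their direction and side of the threshold or were not called in either, 17 gained a call and 0 turned a called direction. Between the unexposed genotypes 1 transcript was called, against 0, without the libraries over 5% Gm42418. After UVB between the genotypes 1 was called by DESeq2, 3 with only the 2 groups compared and 2 without the libraries over 5% Gm42418, against 0. Of all genes, those fits called 1654, 577 and 886, against 830. For UVB in controls 2 were called by DESeq2 and 2 without the libraries over 5% Gm42418, against 1. Of all genes, those fits called 7087 and 6073, against 6343. For UVB in knockouts 1 was called by limma voom and 1 without the libraries over 5% Gm42418, against 0. Of all genes, those fits called 6278 and 4975, against 5710. Leaving out each library in turn gave 0 to 2 calls after UVB between the genotypes (2 without UVB-exposed control library 2), 1 to 3 for UVB in controls (3 without unexposed control library 3, 2 without UVB-exposed control library 4), 0 to 1 for UVB in knockouts (1 without unexposed knockout library 4), and 0 in each case for the unexposed genotypes and for the difference of the responses. The mean mitochondrial share then ranged over 5.70% to 5.88% in exposed knockouts, 7.80% to 9.27% in exposed controls, 5.04% to 6.99% in unexposed knockouts and 5.92% to 6.90% in unexposed controls. limma voom put the median log2 fold change of all genes at -0.13 for UVB in controls. The cause of these changes was not tested, except that fits with fewer libraries hold fewer samples. No paired analysis was possible because the labels give no replicate numbers. With 4 libraries per group and libraries that stand apart, a call missed here does not show that levels were equal.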

Other observations

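Gm28438, the chromosome 1 copy of mt-Nd3, passed the test after UVB in controls (log2 fold change 0.89, edgeR adjusted p = 0.0474). It was the 1 of the 7 copies to do so, where 17.7% of all tested genes rose and 18% fell. It had more counts than mt-Nd3 in 16 of 16 libraries, with 6752 counts over all libraries against 164 for mt-Nd3. Reads of the 2 genes differ at few bases and cannot be told apart over most of their length.

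mt-Nd5 took a larger share of the 6 heavy-strand mRNAs in exposed knockout libraries (9.99% to 10.7%) than in exposed control libraries (9.70% to 9.93%), without overlap, whereas the unexposed genotypes overlapped. The share was chosen after the values were seen and was not tested.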
